A study of Danio rerio with 24 samples.

Results

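The light-sensing genes of the eye were followed in whole zebrafish larvae (Danio rerio, AB strain) raised in dissolved arsenite, uranium or both. The set held 43 zebrafish symbols with known roles in vision: opsins, rod and cone phototransduction proteins, visual-cycle proteins and regulators of photoreceptor identity. Symbols were paired with the NCBI Gene numbers of the deposited expression table, 40 by current symbol and 2 by synonym (pde6h, now pde6ha, and guca1a, now guca1aa). The remaining symbol, cnga1, matched no row by itself, because the table holds cnga1a and cnga1b as separate genes. The members were therefore 42 of the 39974 genes in the table.

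RNA was sequenced from 6 groups, each with 4 libraries, and a library represents 10 whole larvae pooled at 5 days after fertilization. All larvae were wild type and entered their solutions at 4 hours after fertilization in the same dilute Danieau's medium. In 2 exposed groups the agent was sodium arsenite, at 1 µM or at 10 µM, and in 2 others it was the soluble uranium salt uranyl nitrate, at 30 µg/L or at 300 µg/L. The fifth, called the mixture here, combined the lower dose of each. The control group was labelled vehicle. The labels call the pools biological replicates but do not say whether they came from separate spawnings or dishes, so the p-values measure the spread between these pools, part of which may be technical.

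Photoreceptors detect light with opsins, which are receptors that carry a retinal chromophore. A light-activated opsin switches on transducin, transducin releases the inhibition of a cyclic GMP phosphodiesterase, and the fall in cyclic GMP closes cation channels in the outer segment. Opsin kinases and arrestins then shut the opsin off, guanylate cyclases and their calcium-sensing activators restore cyclic GMP, and the visual cycle in the pigment epithelium and glia remakes the chromophore. Zebrafish have rods and 4 cone types, tuned to ultraviolet, blue, green and red light, and at the larval stage used here vision is known to rest mainly on the cones.

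The deposited values are FPKM, fragments of a gene relative to its length and to the size of the library, so levels can be set side by side between genes. Total counts recovered from the steps of the FPKM values ran from 15456854 to 22987080 reads per library. Whole-larva markers were present in the vehicle libraries, with fabp10a of liver at a mean of 655 FPKM, mylpfa of muscle at 504 FPKM, krt4 of skin at 1256 FPKM and elavl3 of neurons at 98.0 FPKM. Photoreceptors are a small share of such a sample, and in whole-larva RNA fewer cells of a type and less RNA per cell cannot be told apart. Transcripts of both photoreceptor classes were present: the rod opsin rho and the ultraviolet opsin opn1sw1 had the highest vehicle means of the members, 1267 FPKM for rho and 970 FPKM for opn1sw1, and the cone transducin gnat2 had 234 FPKM.

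Genes entered the test if 4 or more of the 24 libraries held 0.5 FPKM or above, which 38 of the 42 members passed: 8 rod genes, 19 cone genes and 11 genes of both cell types or of neighbouring cells. Of the 38, 9 had a vehicle mean of at least 100 FPKM, 15 lay between 10 and 100 FPKM, and 14 lay under 10 FPKM. The 4 members not tested were the red opsin copy opn1lw1 (0.0334 to 0.253 FPKM), the green opsin copies opn1mw3 and opn1mw4 (at 0 in 16 and 18 of the 24 libraries) and the rod regulator nr2e3 (0.0346 to 0.416 FPKM). In vehicle larvae opn1mw3 and opn1mw4 were listed at 0 in every library.

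**Figure D1:**
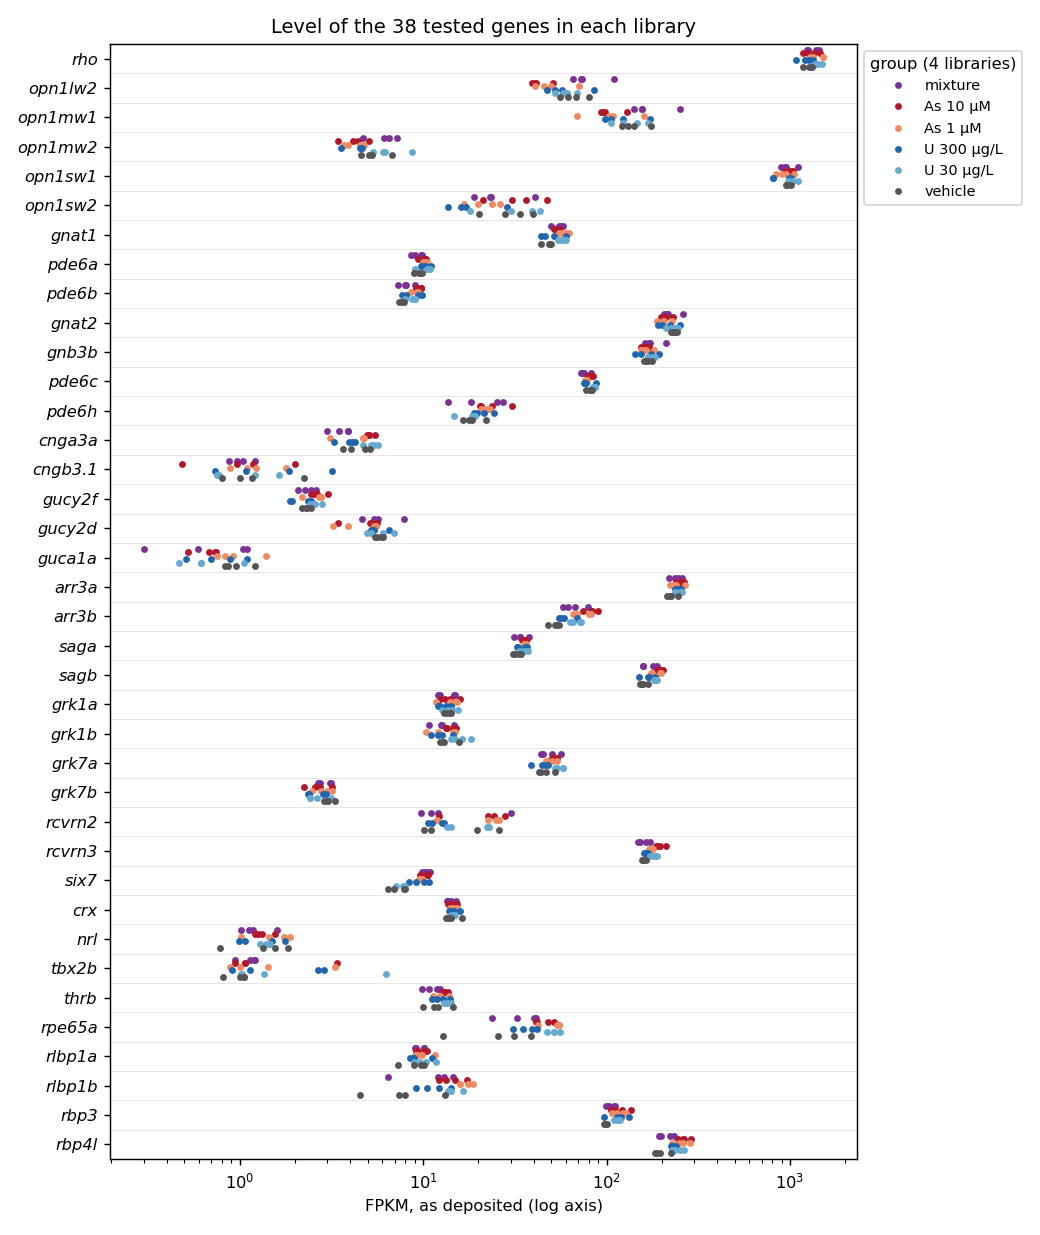
FPKM of the 38 tested genes (rows, ordered by role) in each of the 24 libraries (points, log axis), coloured by group. Levels span from below 1 FPKM for most guca1a libraries to at least 1082 FPKM for rho, and most genes keep all 6 groups within a narrow band, with tbx2b, rcvrn2, opn1sw2 and cngb3.1 spreading the most within groups.

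Each exposure was compared with vehicle, the doses of each metal with each other, and the mixture with its components, in 1 limma model of log2(FPKM + 1) over all 24 libraries. A gene was called at a Benjamini-Hochberg adjusted p under 0.05 over the 22682 genes tested. In larvae at 10 µM arsenite 6 of the 38 members rose (15.8%) and none fell, where 0.727% of all genes were called and 0.595% were higher: the rod phosphodiesterase subunit pde6b, the cone arrestin arr3b, the rod arrestin sagb, the recoverin rcvrn3, the cone regulator six7 and the retinol-binding-protein-like gene rbp4l. At 1 µM arsenite arr3b and six7 rose, 2 of 38 (0.132% of all genes called, 0.119% higher). At 300 µg/L uranyl nitrate six7 alone rose, 1 of 38 (1.77% of all genes called, 0.877% higher), and in the mixture again six7 alone, 1 of 38 (0.406% called, 0.3% higher). At 30 µg/L uranyl nitrate limma called 0 of 38 members and 0.0% of all genes, 14 members had an unadjusted p under 0.05 (7.14% of all genes), and limma-voom on the recovered reads called 0 as well. These 5 comparisons share the 4 vehicle libraries. The members were chosen with earlier results of these data known. Here and in the counts below, their shares stand beside those of all genes as values only, not as a test of the set.

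Between the uranium doses 4 members were called, 1 higher at 300 µg/L (six7) and 3 lower (the cone opsin opn1mw2, the cone channel cnga3a and the cone opsin kinase grk7a), where 6.65% of all genes were called, 2.63% higher and 4.03% lower. The mixture against 30 µg/L uranyl nitrate gave 1 call, six7 (0.238% of all genes called, 0.128% higher). The mixture against 1 µM arsenite gave 0 member calls with limma (0.00441% of all genes), with 11 members at an unadjusted p under 0.05 (7.93% of all genes) and 0 calls by limma-voom. Arsenite at 10 µM against 1 µM also gave 0 calls (0.176% of all genes), with 2 members at an unadjusted p under 0.05 (6.11% of all genes) and 0 by limma-voom. In all, 9 of the 38 tested members were called in at least 1 comparison. The share of all genes called in at least 1 comparison was not computed, so the 9 cannot be set against it. In fits over only the 8 libraries of a comparison, the calls of arr3b and sagb at 10 µM arsenite and of grk7a and cnga3a between the uranium doses held and the others were lost, such as rcvrn3 (adjusted p = 0.066) and rbp4l (adjusted p = 0.0781) at 10 µM arsenite, while rpe65a was called between the uranium doses. Single libraries moved the counts: 5 members were called at 1 µM arsenite and 3 at 300 µg/L uranyl nitrate without vehicle library 2, 0 in both without vehicle library 1 or 4, 7 between the uranium doses without library 3 at 300 µg/L, and 3 for the mixture against 30 µg/L uranyl nitrate without mixture library 3. The share of all genes called moved too, between 2.06% (without library 3 at 30 µg/L) and 5.99% (without library 3 at 300 µg/L) for the uranium doses, and between 0.278% (without vehicle library 1) and 3.4% (without vehicle library 2) for 300 µg/L against vehicle. At 1 µM arsenite it was 0.225% without vehicle library 2, 0.0486% without vehicle library 1 and 0.084% without vehicle library 4. For the mixture against 30 µg/L uranyl nitrate it was 0.225% without mixture library 3.

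The direction of change was also counted over all 38 members, called or not. In larvae at 1 µM arsenite 24 of the 38 had a log2 fold change above 0 against vehicle (63.2%, against 47.1% of all genes). The count was 27 at 10 µM arsenite (71.1%, against 52.8%), 30 at 30 µg/L uranyl nitrate (78.9%, against 50.5%), 19 at 300 µg/L uranyl nitrate (50%, against 48.5%) and 23 in the mixture (60.5%, against 43.9%). The median log2 fold change of the members was 0.10 at 1 µM arsenite, 0.13 at 10 µM arsenite, 0.13 at 30 µg/L uranyl nitrate, 0.00 at 300 µg/L uranyl nitrate and 0.07 in the mixture, where the median over all genes lay between -0.02 and 0.01. The cell classes differed at 1 µM arsenite: 8 of 8 rod members and 7 of 19 cone members lay above 0, with medians of 0.15 and -0.03. Rod and cone members above 0 were 7 of 8 and 12 of 19 at 10 µM arsenite, and 8 of 8 and 13 of 19 at 30 µg/L uranyl nitrate. They were 5 of 8 and 7 of 19 at 300 µg/L uranyl nitrate, and 5 of 8 and 11 of 19 in the mixture. Between the uranium doses 8 of 38 members were higher at 300 µg/L than at 30 µg/L (21.1%, against 49.6% of all genes). The 30 µg/L libraries enter both this count and their own count against vehicle.

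**Figure D2:**
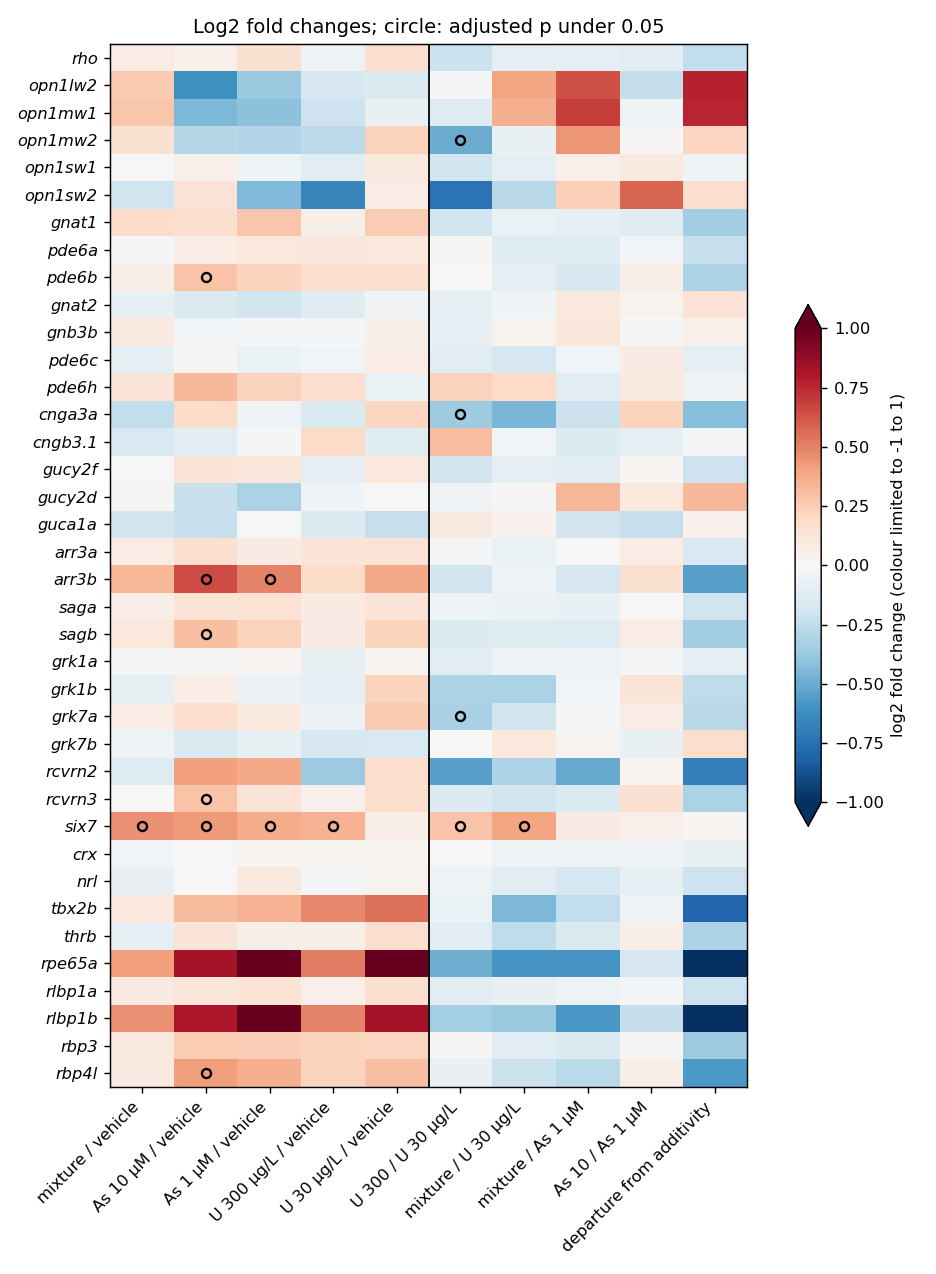
Log2 fold change of the 38 tested genes (rows) in the 10 comparisons (columns, the exposed or higher-dose group on top of each ratio), with red for higher, blue for lower and the colour limited to between -1 and 1. Circles mark adjusted p under 0.05, which six7 has in 6 columns and arr3b in 2.

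The called member seen in most comparisons was six7 (NCBI Gene 30625), a Six-family transcription factor that in zebrafish is needed for green opsin expression in cones. Libraries 1 to 4 had 10.2, 10.5, 10.9 and 9.91 FPKM in the mixture, 9.60, 10.7, 10.5 and 9.79 FPKM at 10 µM arsenite, and 9.91, 9.54, 9.59 and 9.89 FPKM at 1 µM arsenite. They had 8.39, 9.14, 10.7 and 10.2 FPKM at 300 µg/L uranyl nitrate, 7.98, 7.76, 7.84 and 7.10 FPKM at 30 µg/L uranyl nitrate, and 6.41, 7.99, 7.92 and 6.95 FPKM in vehicle. All 16 libraries of the first 4 of these groups lay above every vehicle library, while those at 30 µg/L uranyl nitrate lay within the vehicle range. The log2 fold change over vehicle was 0.46 in the mixture (limma adjusted p = 0.00124), 0.42 at 10 µM arsenite (adjusted p = 0.00136), 0.37 at 1 µM arsenite (adjusted p = 0.0237) and 0.35 at 300 µg/L uranyl nitrate (adjusted p = 0.0129), each with an SE of 0.0671. At 30 µg/L uranyl nitrate it was 0.06 (adjusted p = 0.887).

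In the comparisons with the 30 µg/L uranyl nitrate libraries, which use no vehicle library, six7 was higher by 0.29 on the log2 scale at 300 µg/L (adjusted p = 0.0161) and by 0.39 in the mixture (adjusted p = 0.00997). The groups did not overlap in either case. The mixture and 1 µM arsenite differed by 0.09 (adjusted p = 0.791). Leaving out 1 library ended the call in 5 of 8 fits at 1 µM arsenite (without its library 1, 2 or 4, or vehicle library 1 or 4) and in 3 of 8 at 300 µg/L (without its library 4, or vehicle library 1 or 4). The call between the uranium doses was lost in 2 of 8 (without library 4 of either dose), with adjusted p up to 0.0586. In fits over only the 8 libraries compared all 6 calls were lost, with adjusted p up to 0.318 at 1 µM arsenite.

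Light-regulated clock genes were called beside six7. Of 19 such genes, 3 rose at 1 µM arsenite, 10 µM arsenite, 300 µg/L uranyl nitrate and in the mixture, each time nr1d1, nr1d2a and bhlhe40, which encode rhythmic transcriptional repressors; none was called at 30 µg/L uranyl nitrate. Over all genes 0.119% rose at 1 µM arsenite, 0.595% at 10 µM arsenite, 0.877% at 300 µg/L uranyl nitrate and 0.3% in the mixture. The median log2 fold change of the 19 was 0.02 at 1 µM arsenite (12 above 0) and 0.04 at 10 µM arsenite (14 above 0). It was 0.10 at 300 µg/L uranyl nitrate (18 above 0) and -0.05 in the mixture (8 above 0). For nr1d1 the log2 fold change was 0.49 in the mixture, 0.55 at 10 µM arsenite, 0.43 at 1 µM arsenite and 0.49 at 300 µg/L uranyl nitrate. Between the uranium doses 8 of the 19 were higher at 300 µg/L (2.63% of all genes), per1a, cry1b, cry2, tefb and dbpb among them. Their part in the six7 result was not tested.

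The other regulators among the members gave no call. The photoreceptor homeobox gene crx had means of 14.1 to 14.7 FPKM in the exposed groups and 14.4 FPKM in vehicle. The thyroid hormone receptor thrb, which specifies red cones, had 11.2 to 13.5 FPKM in the exposed groups and 12.0 FPKM in vehicle. The rod regulator nrl had 1.23 to 1.53 FPKM in the exposed groups and 1.37 FPKM in vehicle. The ultraviolet-cone regulator tbx2b was the noisiest member (residual SD 0.534 log2 units): 5 libraries from 4 exposed groups held 2.68 to 6.31 FPKM and the other 19 held at most 1.42 FPKM, so that its mean of 2.43 ± 2.60 FPKM at 30 µg/L uranyl nitrate (SD, n = 4) rested on library 4.

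**Figure D3:**
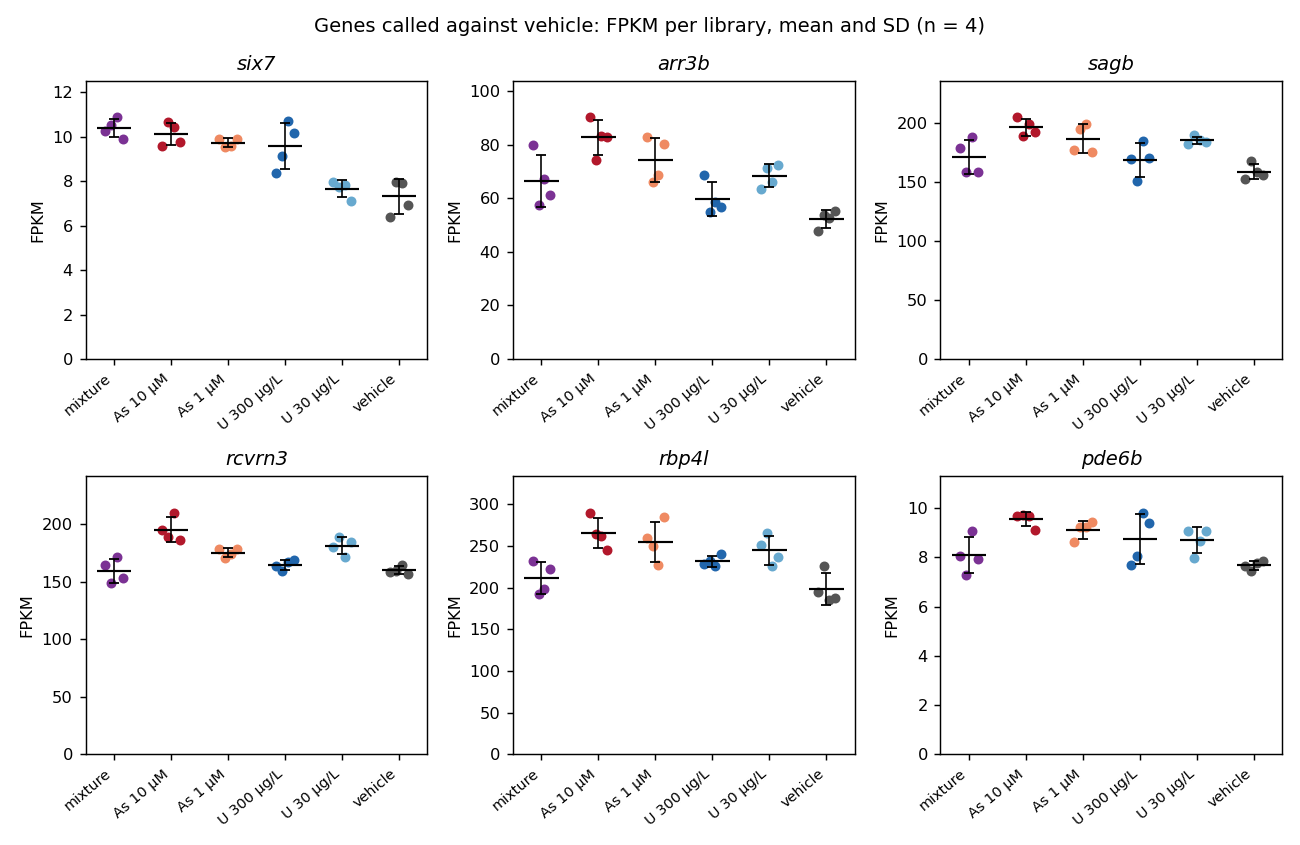
FPKM of the 6 genes called against vehicle in each library (points), with the mean (line) and SD (bars, n = 4) of each group. For six7 the 4 groups at the left and the vehicle group do not overlap, while arr3b, sagb, rcvrn3, rbp4l and pde6b stand highest in larvae at 10 µM arsenite (means of 82.7, 196, 195, 265 and 9.55 FPKM).

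Arrestins bind phosphorylated opsin and end its signal. The cone arrestin arr3b (NCBI Gene 796867), found in blue and ultraviolet cones of zebrafish, had 90.2, 74.4, 83.2 and 82.9 FPKM at 10 µM arsenite, 82.7, 66.0, 68.8 and 80.1 FPKM at 1 µM arsenite, and 47.7, 53.7, 52.5 and 55.2 FPKM in vehicle. Every arsenite library lay above every vehicle library. The log2 fold change was 0.65 at 10 µM (SE 0.0927, adjusted p = 0.000377) and 0.50 at 1 µM (adjusted p = 0.0297). In the mixture arr3b had 79.8, 57.7, 67.1 and 61.3 FPKM, also without overlap with vehicle, and a log2 fold change of 0.33 that was not called (adjusted p = 0.139). At 30 µg/L uranyl nitrate it had 63.5, 71.5, 66.0 and 72.6 FPKM (log2 fold change 0.38, adjusted p = 0.347), and at 300 µg/L it had 68.8, 54.8, 58.7 and 56.7 FPKM (0.19, adjusted p = 0.322). The call at 10 µM held in 8 of 8 fits that left out a library, and the one at 1 µM was lost in 5 of 8 (without its library 1 or 4, or vehicle library 1, 3 or 4), with adjusted p up to 0.117, and without the variance trend.

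The rod arrestin sagb (NCBI Gene 619268) had 204, 189, 198 and 192 FPKM at 10 µM arsenite and 153, 168, 158 and 156 FPKM in vehicle. The groups did not overlap, and the log2 fold change was 0.30 (SE 0.0601, adjusted p = 0.0125). Without library 1 of either group the call was lost, with adjusted p up to 0.0518. Uncalled rises of sagb over vehicle, also without overlap, were seen at 1 µM arsenite (log2 fold change 0.23, limma adjusted p = 0.179) and at 30 µg/L uranyl nitrate (0.22, adjusted p = 0.361). The second rod arrestin, saga, had 35.8 ± 0.806 FPKM at 10 µM arsenite and 32.6 ± 1.49 FPKM in vehicle (SD, n = 4 each; adjusted p = 0.306). The second cone arrestin, arr3a, had 253 ± 10.4 FPKM at 10 µM arsenite and 227 ± 12.9 FPKM in vehicle (adjusted p = 0.26).

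Recoverins are calcium sensors that restrain opsin kinases in darkness. The gene rcvrn3 (NCBI Gene 572207) had 195, 189, 210 and 186 FPKM at 10 µM arsenite and 159, 160, 165 and 157 FPKM in vehicle. No library overlapped, and the log2 fold change of 0.28 (SE 0.0444, adjusted p = 0.00122) held in 8 of 8 fits that left out a library. Without overlap but also without a call, rcvrn3 was above vehicle at 1 µM arsenite (0.13, limma adjusted p = 0.45) and at 30 µg/L uranyl nitrate (0.18, adjusted p = 0.347). Its paralog rcvrn2 fell instead into separate sets of libraries that crossed the groups: 13 libraries held 9.69 to 14.2 FPKM and 11 held 19.7 to 30.0 FPKM. The higher set took 1 of 4 libraries of the mixture, 3 at 10 µM arsenite, 3 at 1 µM arsenite, 0 at 300 µg/L uranyl nitrate, 2 at 30 µg/L uranyl nitrate and 2 of vehicle. No comparison of rcvrn2 was called.

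Rod transducin activates a phosphodiesterase whose catalytic subunits are encoded by pde6a and pde6b. The gene pde6b (NCBI Gene 559332) had 9.69, 9.71, 9.69 and 9.12 FPKM at 10 µM arsenite and 7.64, 7.43, 7.78 and 7.85 FPKM in vehicle. The groups did not overlap and the log2 fold change was 0.28 (SE 0.0657, adjusted p = 0.0441). This call was lost in 8 of 8 fits that left out a library (adjusted p up to 0.128), and without the filter, under median-of-ratios scaling and without the variance trend. Uncalled rises of pde6b over vehicle, again without overlap, were seen at 1 µM arsenite (0.22, limma adjusted p = 0.301) and at 30 µg/L uranyl nitrate (0.16, adjusted p = 0.634). The partner subunit pde6a had 10.0 ± 0.418 FPKM at 10 µM arsenite and 9.46 ± 0.417 FPKM in vehicle, and was not called (adjusted p = 0.694). The rod transducin gene gnat1 had 54.8, 49.85, 56.7 and 57.6 FPKM in the mixture and 49.995, 44.0, 48.8 and 49.1 FPKM in vehicle. The ranges overlapped at a single mixture library, and the log2 fold change was 0.19 (adjusted p = 0.329). Larger uncalled rises of gnat1, without overlap, were seen at 1 µM arsenite (0.28, limma adjusted p = 0.163) and at 30 µg/L uranyl nitrate (0.25, adjusted p = 0.381). At 10 µM arsenite it was 0.16 (adjusted p = 0.447, no overlap) and at 300 µg/L uranyl nitrate 0.06 (adjusted p = 0.74).

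The matching cone genes gave no call in any comparison. The cone phosphodiesterase gene pde6c had the smallest residual SD of the members, 0.0594 log2 units, with means of 76.0 to 85.3 FPKM in the exposed groups and 81.0 ± 2.61 FPKM in vehicle. The cone transducin alpha subunit gnat2 had means of 206 to 229 FPKM in the exposed groups and 234 FPKM in vehicle. The beta subunit gnb3b had 164 to 179 FPKM in the exposed groups and 167 FPKM in vehicle. The cone phosphodiesterase inhibitor gene pde6h had 17.8 to 23.9 FPKM in the exposed groups and 18.7 FPKM in vehicle.

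Among visual-cycle and retinoid-carrier genes rbp4l was the member called against vehicle, at 10 µM arsenite. The gene rbp4l (NCBI Gene 335651), related to the retinol carrier of plasma, had 290, 264, 262 and 246 FPKM at 10 µM arsenite and 195, 226, 185 and 188 FPKM in vehicle. The groups did not overlap, and the log2 fold change was 0.42 (SE 0.075, adjusted p = 0.00472). At 1 µM arsenite the log2 fold change was 0.36 and just missed the threshold (adjusted p = 0.0554), at 30 µg/L uranyl nitrate it was 0.30 (adjusted p = 0.347) and at 300 µg/L it was 0.22 (adjusted p = 0.12). The genes pde6b and rbp4l lie near each other, with 1 coding gene between them in the RefSeq gene order of assembly GRCz12tu. The retinoid-binding protein of the space between photoreceptors and pigment epithelium, rbp3, had 121, 114, 133 and 97.1 FPKM at 300 µg/L uranyl nitrate. It had 99.3, 100.3, 98.7 and 96.7 FPKM in vehicle (log2 fold change 0.23, adjusted p = 0.133). Library 4 at 300 µg/L lay within the vehicle range. Similar uncalled rises of rbp3, without overlap, were seen at 1 µM arsenite (0.24, limma adjusted p = 0.4), 10 µM arsenite (0.26, adjusted p = 0.17) and 30 µg/L uranyl nitrate (0.21, adjusted p = 0.559). In the mixture its mean was 106 FPKM.

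The largest fold changes belonged to rpe65a, the isomerase of the pigment epithelium that remakes the chromophore, and to rlbp1b, a retinal-binding protein of the same cells. In rpe65a (NCBI Gene 393724) libraries 1 to 4 had 55.1, 42.5, 55.0 and 53.7 FPKM at 1 µM arsenite, 51.7, 55.7, 47.4 and 51.4 FPKM at 30 µg/L uranyl nitrate, and 12.8, 38.6, 25.6 and 31.3 FPKM in vehicle. All 8 exposed libraries were above all 4 vehicle libraries, among which there was a wide range. The log2 fold change was 1.00 in both exposures (SE 0.218), with adjusted p of 0.0669 at 1 µM arsenite and 0.301 at 30 µg/L uranyl nitrate. At 10 µM arsenite rpe65a had 41.3, 48.1, 41.9 and 51.8 FPKM (0.83, adjusted p = 0.0874), at 300 µg/L uranyl nitrate 39.1, 30.9, 41.8 and 34.9 FPKM (0.52, adjusted p = 0.229), and in the mixture 32.6, 23.7, 40.5 and 41.4 FPKM (0.41, adjusted p = 0.525).

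The gene rlbp1b had means of 17.1 ± 1.44 FPKM at 1 µM arsenite and 8.27 ± 3.60 FPKM in vehicle (SD, n = 4 each; log2 fold change 1.04, adjusted p = 0.0573). The library lowest for rpe65a was also lowest for rlbp1b in 5 of the 6 groups, and the same library was highest for both in 3 of 6. Vehicle library 2 carried the highest vehicle value of both genes, 38.6 and 13.2 FPKM. Without it, 5 members were called at 1 µM arsenite (0.225% of all genes), rpe65a and rlbp1b among them. Over 11 pigment epithelium genes the summed FPKM, of which bhlhe40 alone made 107 FPKM in the vehicle mean, ran from 245 to 286 at 1 µM arsenite, 235 to 255 at 30 µg/L uranyl nitrate and 224 to 271 in vehicle, and bhlhe40 was the only gene of that list called in any comparison; it also stands in the clock list. Of the pigment genes, pmela had 33.2, 45.6, 43.5 and 39.96 FPKM in vehicle and dct had 11.9, 20.2, 16.3 and 14.3 FPKM. The gene tyrp1b had 43.1, 54.3, 53.9 and 48.7 FPKM. Each of these was lowest in library 1 and highest in library 2, as rpe65a and rlbp1b were. The pigment gene tyr was nearly flat in vehicle, with 11.3, 11.9, 12.0 and 11.3 FPKM, and was highest in library 3. The part of the pigment genes in the rpe65a and rlbp1b values was not tested. The paralog rlbp1a, expressed in Müller glia, had 9.36 to 10.2 FPKM in the exposed groups and 9.01 FPKM in vehicle and was not called.

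**Figure D4:**
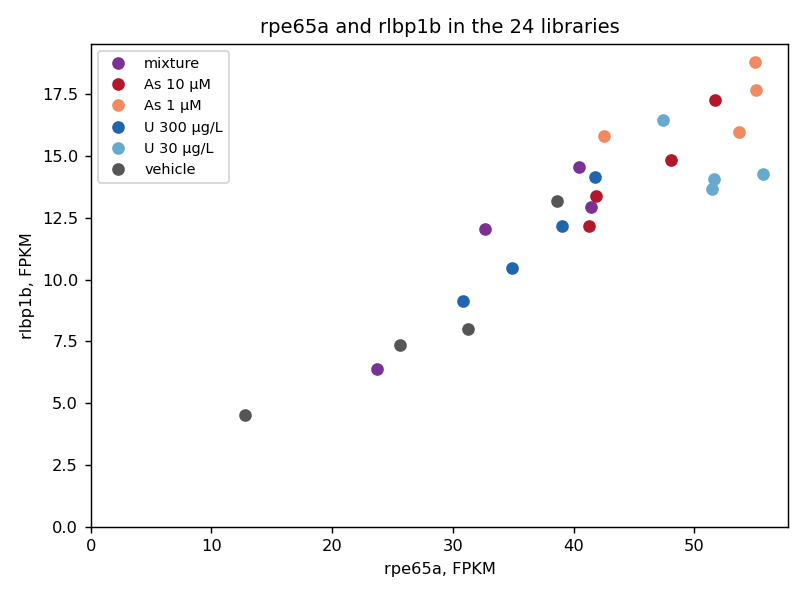
FPKM of rlbp1b (vertical axis) against rpe65a (horizontal axis) in the 24 libraries, coloured by group. The vehicle libraries run from 12.8 to 38.6 FPKM for rpe65a at the lower left, and those at 1 µM arsenite and 30 µg/L uranyl nitrate lie at 42.5 FPKM or higher.

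Opsin levels, summed over the 9 opsins, averaged 2596 ± 249 FPKM in the mixture, 2503 ± 187 at 10 µM arsenite, 2542 ± 244 at 1 µM arsenite, 2339 ± 263 at 300 µg/L uranyl nitrate, 2693 ± 69.8 at 30 µg/L uranyl nitrate and 2481 ± 97.7 in vehicle (SD, n = 4 each). Rod opsin rho made up 51.1% of that sum in vehicle larvae and the ultraviolet opsin opn1sw1 made up 39.1%. The green opsin opn1mw1 made up 5.72%, its copy opn1mw2 made up 0.218%, the red opsin opn1lw2 made up 2.67%, and the blue opsin opn1sw2 made up 1.23%. No opsin was called against vehicle in any exposure.

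The red opsin opn1lw2 (NCBI Gene 436716) had the largest difference among the opsins at 10 µM arsenite, with 40.9, 39.2, 41.2 and 50.8 FPKM there and 68.2, 61.4, 80.4 and 55.8 FPKM in vehicle. The groups did not overlap, and the log2 fold change was -0.61 (SE 0.181, adjusted p = 0.154). The green opsin opn1mw1 had 104 ± 16.6 FPKM at 10 µM arsenite, 110 ± 37.2 FPKM at 1 µM arsenite, 176 ± 51.3 FPKM in the mixture and 142 ± 23.3 FPKM in vehicle. These opsins of red and green cones varied together between libraries: the same library was highest for both in 6 of 6 groups and lowest for both in 5 of 6. The highest was library 3 in 5 of the 6 groups. Library numbers had no shared meaning in the labels. In all, 5 members were highest in library 3 in 5 of the 6 groups, and they were the cone genes opn1lw2, opn1mw1, opn1sw1, gnat2 and gnb3b; no other tested member was highest in 1 number in so many groups. The green opsin copies opn1mw1 to opn1mw4 are neighbours in the gene order and alike in sequence, as are opn1lw1 and opn1lw2, so reads may have been split or dropped between copies.

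The blue opsin opn1sw2 spread widely within groups, from 13.6 to 28.7 FPKM at 300 µg/L uranyl nitrate, 17.98 to 43.2 FPKM at 30 µg/L and 20.1 to 39.6 FPKM in vehicle (residual SD 0.441 log2 units). Its fold change between the uranium doses, -0.74 on the log2 scale, was not called (adjusted p = 0.133).

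The 3 members called lower at 300 µg/L than at 30 µg/L uranyl nitrate (7.89% of the 38, against 4.03% of all genes) were cone genes, as were 19 of the 38 tested. Called or not, 2 of 8 rod members and 3 of 19 cone members lay above 0 in this comparison. Their median log2 fold changes were -0.0784 (rod) and -0.105 (cone). The cone opsin kinase grk7a (NCBI Gene 566120), which phosphorylates activated cone opsins, had 44.7, 38.7, 48.0 and 46.0 FPKM at 300 µg/L and 52.4, 58.0, 58.2 and 53.5 FPKM at 30 µg/L. The groups did not overlap, and grk7a was lower by 0.32 on the log2 scale at 300 µg/L (SE 0.077, adjusted p = 0.0176). That call was lost without library 2 at 300 µg/L or library 3 at 30 µg/L. The 30 µg/L libraries also lay above every vehicle library for grk7a (log2 fold change 0.26, limma adjusted p = 0.406). The mean was 55.5 FPKM at 30 µg/L, 44.3 FPKM at 300 µg/L and 46.3 FPKM in vehicle. The minor green opsin opn1mw2 (NCBI Gene 360151) had 3.57, 4.51, 4.61 and 4.62 FPKM at 300 µg/L and 6.02, 6.23, 8.73 and 5.31 FPKM at 30 µg/L. It was lower by 0.49 on the log2 scale at 300 µg/L (SE 0.134, adjusted p = 0.0317). That call was lost in 5 of 8 fits that left out a library, most of all without library 3 at 30 µg/L (adjusted p = 0.124).

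The cone channel subunit cnga3a (NCBI Gene 567242) had 4.23, 3.28, 4.09 and 3.97 FPKM at 300 µg/L and 5.19, 5.43, 5.69 and 4.70 FPKM at 30 µg/L. The groups did not overlap and cnga3a was lower by 0.36 on the log2 scale at 300 µg/L (SE 0.105, adjusted p = 0.0446). This call was lost in 8 of 8 fits that left out a library, without the filter, with equal FPKM totals and with a replicate block. Vehicle lay between the doses for each of the 3 genes, with means of 46.3 FPKM for grk7a, 5.42 FPKM for opn1mw2 and 4.42 FPKM for cnga3a, and none of them differed from vehicle at either dose by the test. In the mixture cnga3a had 3.87, 3.47, 3.88 and 3.01 FPKM, all below the 30 µg/L libraries (log2 fold change -0.46, adjusted p = 0.0685). Rod opsin rho was lower at 300 µg/L than at 30 µg/L, with 1272, 1082, 1338 and 1208 FPKM at 300 µg/L and 1422, 1370, 1392 and 1500 FPKM at 30 µg/L, without overlap and without a call (-0.22, adjusted p = 0.0795). Against vehicle the log2 fold change of rho was 0.17 at 30 µg/L, without overlap (limma adjusted p = 0.663), and -0.05 at 300 µg/L (adjusted p = 0.798).

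**Figure D5:**
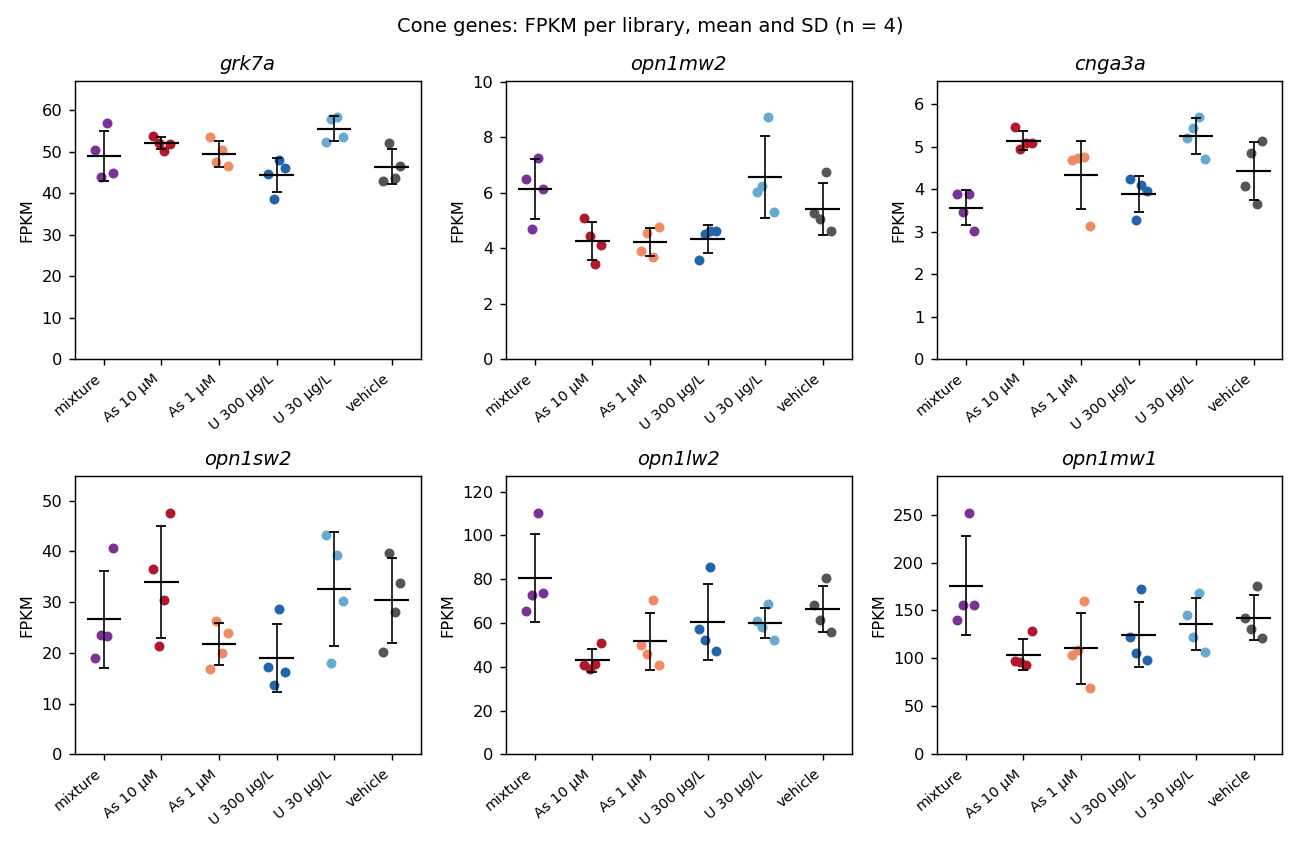
FPKM of 6 cone genes in each library (points), with the mean (line) and SD (bars, n = 4) of each group. The libraries at 300 µg/L uranyl nitrate lie below those at 30 µg/L for grk7a, opn1mw2 and cnga3a, and opn1lw2 at 10 µM arsenite (39.2 to 50.8 FPKM) lies below vehicle (55.8 to 80.4 FPKM).

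The remaining kinases, cyclases and channel genes gave no call. The rod opsin kinase grk1a had means of 13.0 to 14.0 FPKM in the exposed groups and 13.7 FPKM in vehicle. The cone kinase grk1b had 12.6 to 15.9 FPKM in the exposed groups and 13.5 FPKM in vehicle, and grk7b had 2.64 to 2.92 FPKM in the exposed groups and 3.05 FPKM in vehicle. The guanylate cyclase gucy2f had 2.15 to 2.66 FPKM in the exposed groups and 2.32 FPKM in vehicle, and gucy2d had 4.51 to 5.89 FPKM in the exposed groups and 5.76 FPKM in vehicle. The cyclase activator guca1a was at 0.671 to 0.975 FPKM in the exposed groups and 0.966 FPKM in vehicle. The cone channel subunit cngb3.1 was at 1.03 to 1.71 FPKM in the exposed groups and 1.302 FPKM in vehicle. The 2 genes that carry the cnga1 name, cnga1a and cnga1b, which encode rod channel subunits, had 3.39 and 4.88 FPKM in vehicle and were not counted as members.

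Members whose libraries did not overlap with vehicle numbered 12 of 38 at 1 µM arsenite, all higher (3.66% of all genes did not overlap in that comparison). They numbered 12 at 10 µM arsenite, 10 higher and 2 lower (6.13%), and 12 at 30 µg/L uranyl nitrate, all higher (4.34%). At 300 µg/L uranyl nitrate there was 1 (9.75%) and in the mixture there were 2 (4.92%). The lower ones at 10 µM arsenite were opn1lw2 and guca1a. The same vehicle libraries enter all 5 counts.

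The mixture was also compared with what adding both components' log2 changes would give, as mixture minus 1 µM arsenite minus 30 µg/L uranyl nitrate plus vehicle. The median member lay at -0.21 (-0.01 over all genes), and 10 of 38 lay above 0 (26.3%, against 46.2% of all genes). Limma called 0 members (0.0353% of all genes), with 17 at an unadjusted p under 0.05 (7.33% of all genes). Limma-voom called 2, rbp4l and rpe65a (0.0485% of all genes). In the limma fit the departure was -0.57 for rbp4l (SE 0.106, adjusted p = 0.0547), -1.59 for rpe65a (SE 0.308, adjusted p = 0.0615) and -0.31 for rcvrn3 (SE 0.0629, adjusted p = 0.0706). For rbp4l the means were 211 FPKM in the mixture, 255 FPKM at 1 µM arsenite, 244 FPKM at 30 µg/L uranyl nitrate and 198 FPKM in vehicle. Vehicle enters this contrast with the opposite sign to the components, and 3 members were called without vehicle library 2, and 1 without library 3 at 1 µM arsenite or library 1 of the mixture. Over all genes these fits called 0.0619%, 0.0177% and 0.0442%, in that order. For six7 the departure was 0.02 (adjusted p = 0.982).

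Of 31 further rod and cone phototransduction genes tested, 1 rose in the mixture (0.3% of all genes rose), at 10 µM arsenite (0.595% of all genes) and at 300 µg/L uranyl nitrate (0.877% of all genes). The median of the 31 was 0.05 in the mixture, 0.03 at 10 µM arsenite and -0.02 at 300 µg/L uranyl nitrate. The gene called was guca1c, a guanylate cyclase activator of cones, with 28.0, 24.03, 27.5 and 25.0 FPKM in the mixture, 23.4, 24.5, 24.3 and 22.1 FPKM at 10 µM arsenite, 22.3, 21.1, 21.8 and 23.7 FPKM at 300 µg/L uranyl nitrate, and 14.7, 17.9, 19.2 and 15.2 FPKM in vehicle. None of these exposed libraries overlapped with vehicle. The log2 fold change was 0.62 in the mixture (adjusted p = 0.00049), 0.48 at 10 µM arsenite (adjusted p = 0.00379) and 0.39 at 300 µg/L uranyl nitrate (adjusted p = 0.0209). The transducin beta subunit gnb1b was lower at 300 µg/L than at 30 µg/L uranyl nitrate, by 0.15 on the log2 scale (adjusted p = 0.0151). It was 1 of the 31, where 4.03% of all genes were lower.

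Of 22 other photoreceptor regulators, neurod1, a bHLH factor of photoreceptor and neuron development, rose in the mixture, at 10 µM arsenite and at 300 µg/L uranyl nitrate. Of the 22, 2 rose in the mixture (0.3% of all genes), 1 at 10 µM arsenite (0.595%) and 2 at 300 µg/L uranyl nitrate (0.877%). The mean of neurod1 was 50.6 FPKM in the mixture (log2 fold change 0.33, adjusted p = 0.00113) and 47.3 FPKM at 10 µM arsenite (0.24, adjusted p = 0.0157). It was 46.7 FPKM at 300 µg/L uranyl nitrate (0.22, adjusted p = 0.0258) and 40.01 FPKM in vehicle. The eye-field homeobox gene six6b rose in the mixture (0.31, adjusted p = 0.033) and at 300 µg/L uranyl nitrate (0.34, adjusted p = 0.0129). Between the uranium doses six6b, rorab and otx5 were higher at 300 µg/L, 3 of 22 (2.63% of all genes were higher). The list as a whole had a median log2 fold change of -0.02 there, with 10 of 22 above 0. Neurod1 and six6b are also expressed outside the eye.

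Of the other lists, 21 further visual-cycle genes, 24 genes of the outer segment, cilium and synapse, 11 pineal genes and 20 nonvisual opsins had 0 calls in limma at 10 µM arsenite, the exposure with the most member calls. In that comparison 0.727% of all genes were called, so lists of this size can be without a call at that share. The smallest p-values there belonged to rgra (log2 fold change 0.49, adjusted p = 0.0572) and rdh8b (-0.31, 0.172) of the visual cycle, aipl1 (0.29, 0.289) and rp1l1a (0.20, 0.33) of the outer segment, parietopsin (0.26, 0.366) and gfi1ab (0.29, 0.379) of the pineal, and opn4.1 (0.25, 0.172) and opn6b (-0.36, 0.539) of the nonvisual opsins. Of 9 Müller glia markers 1, the widely expressed glula, rose in the mixture (0.51, adjusted p = 0.00802), where 0.3% of all genes rose. It also rose at 300 µg/L uranyl nitrate (0.40, adjusted p = 0.0302), where 0.877% of all genes rose. Between the uranium doses 2.63% of all genes were higher at 300 µg/L and 4.03% were lower. In that comparison glula was higher (0.31, adjusted p = 0.0442) and ca2, from the same list, was lower (-0.34, adjusted p = 0.0495). Single genes of 3 other lists were higher at 300 µg/L. They were the bipolar gene cabp5a (1 of 12), chata of the amacrine and horizontal list (1 of 12) and the ganglion cell gene rbpms2b (1 of 10). Of 13 markers of tissues outside the eye 2 were lower at 300 µg/L. These were krt4 of skin (-0.35, adjusted p = 0.0341) and apoa2 of liver (-0.49, adjusted p = 0.0348).

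Lens genes varied widely between libraries, and none was called. All 14 lens genes tested had log2 fold changes above 0 against vehicle in the mixture (median 0.54) and at 10 µM arsenite (0.69). The same held at 1 µM arsenite (0.55) and at 30 µg/L uranyl nitrate (0.76). At 300 µg/L uranyl nitrate 6 of 14 lay above 0 (-0.06), but the mean summed lens FPKM was 770 there and 640 in vehicle. In that exposed group crybb1 had 543, 57.5, 2.28 and 1.88 FPKM. For 300 µg/L against 30 µg/L uranyl nitrate 1 of 14 lay above 0 (median -0.83). For the departure from additivity 0 of 14 lay above 0 (median -0.75). Their spread was wide: the summed lens FPKM ran from 563 to 1302 in the mixture, 354 to 2114 at 10 µM arsenite, 236 to 2242 at 1 µM arsenite, 280 to 2016 at 300 µg/L uranyl nitrate, 576 to 1661 at 30 µg/L uranyl nitrate and 349 to 1010 in vehicle. Limma called 0 of the 14 in any comparison. Their part in the photoreceptor results was not tested.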

How the data were processed

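Per the submitters' processing notes, HISAT2 2.1.0, HTSeq 0.6.1 and genome build GRCz11 were used; roles, strand setting and annotation are not given in the sources used here. The authors deposited 1 table of FPKM values for 39974 genes by NCBI Gene number, with no column left unused (0). Symbols came from an NCBI names table (32044 numbers matched). Reads were recovered by choosing for each gene the FPKM step that made its values whole within 0.01 reads. That 100% of values were whole is therefore no check of the recovery. The gene lengths implied by the recovered reads lay within 0.01 of a whole number in 94.7% of cases. FPKM is not a count, so log2(FPKM + 1) was fitted with limma 3.58.1 in R 4.3.3 (6 group means, 18 residual degrees of freedom, trended variance, two-sided, Benjamini-Hochberg adjusted p under 0.05 called). Genes needed FPKM of at least 0.5 in at least 4 libraries (22682 tested). Adding 1 FPKM before the logarithm shrinks the fold changes of weakly expressed genes. The members and the lists set beside them were chosen with earlier results of these data known. Members called in any of the 10 comparisons are given library by library at least for the groups of that call. The 3 members with the smallest p in each exposure are named too. Members such as rlbp1b, opn1lw2, rcvrn2 and tbx2b were described after their values were seen. From each other list, called genes are named, or the 2 with the smallest p at 10 µM arsenite. The procedure was also run on simulated data with independent libraries and the same dispersion for all genes. Its outcome is not given here, and it is no check of the member calls. Alternatives were another pseudocount (0.1), no filter, 2 other scalings, no trend, only the compared groups, a replicate block, limma-voom on recovered reads, and leaving out each library. Over all genes limma-voom called 22 at 1 µM arsenite, 167 at 10 µM arsenite, 1 at 30 µg/L uranyl nitrate, 324 at 300 µg/L uranyl nitrate and 94 in the mixture, where limma on FPKM called 30, 165, 0, 402 and 92.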

Additional observations from a re-analysis of the deposited data

Results flagged for a closer look

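In 72 group sets of 4 libraries checked over the called and named members, 4 had 1 library far from the other 3 by Dixon's criterion, and chance alone flags about 1 set in 20. At 300 µg/L uranyl nitrate, library 1 was low for opn1mw2, at 3.57 FPKM, against 4.51 to 4.62 FPKM in the others. At 10 µM arsenite, library 4 was low for pde6b, at 9.12 FPKM, against 9.69 to 9.71 FPKM. At 1 µM arsenite, library 4 was low for cnga3a, at 3.12 FPKM, against 4.69 to 4.76 FPKM. In the same group library 2 was low for rpe65a, at 42.5 FPKM, against 53.7 to 55.1 FPKM.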

How the results depend on the processing

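None of the 23 member fold changes followed through the alternatives reversed its direction. Counts of called members moved as follows. With only the compared groups fitted they were 0 at 1 µM arsenite, 2 at 10 µM arsenite, 0 at 300 µg/L uranyl nitrate, 0 in the mixture and 0 for the mixture against 30 µg/L uranyl nitrate; this fit has fewer libraries. The fits of only the compared groups called 0.022%, 0.256%, 0.423%, 0.0749% and 0.0882% of all genes in these comparisons, in that order. Without the variance trend 1 µM arsenite gave 1 (0.0661% of all genes). For the mixture against 30 µg/L uranyl nitrate, 2 were called with an equal FPKM total (0.234% of all genes) and 2 with limma-voom (0.317%). For the departure from additivity, 1 was called with a pseudocount of 0.1 (0.0529% of all genes), 2 with an equal FPKM total (0.0485%) and 2 with limma-voom (0.0485%). The cause was not tested for these. Leaving out each library gave 0 to 5 calls at 1 µM arsenite (0 without its library 1 or 4, 1 without its library 2 or vehicle library 3), 4 to 7 at 10 µM arsenite, 0 to 3 at 300 µg/L uranyl nitrate (0 without its library 4), 1 to 7 between the uranium doses (1 without library 2 or 4 at 300 µg/L or library 3 at 30 µg/L, 2 without library 1 at 300 µg/L or library 4 at 30 µg/L), 1 to 3 for the mixture against 30 µg/L uranyl nitrate, and 0 to 3 for the departure. It gave 0 in every fit at 30 µg/L uranyl nitrate, between the arsenite doses and for the mixture against 1 µM arsenite, and 1 in every fit of the mixture against vehicle. The share of all genes called in such fits was 0.0486% to 0.239% at 1 µM arsenite and 0.451% to 0.796% at 10 µM arsenite. It was 0.0751% to 0.225% for the mixture against 30 µg/L uranyl nitrate and 0.00442% to 0.0619% for the departure. Over all genes, 8 of 24 libraries had their highest mean residual correlation with libraries of their own replicate number. Same-number correlations ran from -0.155 to 0.107 and different-number ones from -0.122 to 0.121. Being taken over all genes, these correlations cannot show whether the numbers pair the libraries for the members. With the replicate block 3 members were called at 1 µM arsenite, 7 at 10 µM arsenite and 5 between the uranium doses (grk7a, opn1mw2, six7, rho and opn1sw1; cnga3a had an adjusted p of 0.053). The replicate block called 0.15%, 0.705% and 6.28% of all genes in these 3 comparisons. Across these data 5 cone genes were highest in library 3 in 5 of 6 groups. Other scalings shifted the median log2 fold change of all genes by -0.0219 to 0.0183. Genes under about 1 FPKM rest on few reads, which limits guca1a and the untested members.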
